A study of Danio rerio with 27 samples.

Results

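Bcl2 family genes whose products promote cell death were followed through all groups of an RNA sequencing study of zebrafish larvae under lethal cold. The genes were chosen by name, as every row of the deposited expression table whose gene name was bbc3, pmaip1, bada, bcl2l11, bida, baxa, baxb, bokb or bnip3lb. The names were picked with earlier results of these data known, so counts set beside the share of all genes are descriptive only. These 9 symbols had 10 gene identifiers of the 24101 in the table, because bida was listed under ENSDARG00000069290 and ENSDARG00000112031. Values of the bida identifiers are uncertain, since reads of near-identical copies can be split between them. The samples were whole AB larvae, with the fish of a sample collected together in a tube and dead fish removed beforehand. In the group called 96hpf, larvae were taken without treatment at 96 h post fertilization, the start of all exposures. In 28C_DMSO and 10C_DMSO they were kept for 12 h at 28 °C or at 10 °C with 0.1% DMSO, the vehicle. In 28C_AS and 10C_AS the water held 0.5 µM AS1842856, an inhibitor of the transcription factor Foxo1. In 28C_PD and 10C_PD it held 5 µM PD0325901, an inhibitor of the ERK-activating kinase MEK, and in 28C_SB and 10C_SB 50 µM SB203580, an inhibitor of p38 MAPKs. The inhibitor groups were also kept for 12 h, at the temperature in their names. The labels give no DMSO percentage for them. By the study's methods these inhibitors were dissolved in DMSO, with at most 0.1% in the medium. Each of the 9 groups had 3 libraries. The labels do not say that libraries of a group came from separate clutches, and the p-values below reflect only how far these samples vary, which may be technical variation.

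The Bcl2 family decides in the mitochondrial pathway of apoptosis whether the outer mitochondrial membrane is opened. BH3-only proteins such as Puma (bbc3), Noxa (pmaip1), Bad, Bim (bcl2l11) and Bid carry stress signals and bind the anti-apoptotic proteins Bcl2, Bcl-xL and Mcl1, some of them also activating the effectors. The effectors Bax and, with a distinct mode of control, Bok form pores through which cytochrome c leaves and caspases are activated, while Bnip3l (also called Nix) is a mitochondrial protein best known as a receptor for the removal of mitochondria by autophagy. In mammals, transcription of Puma and Bim is induced by FoxO factors. Many genes of this family have a and b copies in zebrafish.

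Levels are scaled TPM, that is, deposited TPM (transcript shares corrected for length) divided by a size factor for each library, and are given as mean ± SD of 3 libraries unless single libraries are listed. Changes are differences on the log2(scaled TPM + 1) scale, which understates the change of genes near 1. Calls of a change required, in limma, an adjusted p (Benjamini-Hochberg, over all 24101 genes) no higher than 0.05 together with a fold of at least 1.5 on that scale. Library totals lay between 996255 and 997428 TPM and mitochondrial transcripts took 7.30 to 12.9%. TPM keeps no read depth, and the read numbers that the study gives elsewhere were not used here. The lowest correlation within any group was 0.966, between 10C_DMSO replicates 1 and 3, and mitochondrial transcripts took 8.42% of 10C_DMSO replicate 1 against 11.2% and 11.4% of the others. They also took 7.30% of 28C_DMSO replicate 1, the lowest of all libraries, against 9.91% and 9.69% of replicates 2 and 3. The lowest correlation within 28C_DMSO was 0.9705, between replicates 1 and 2. Markers of 8 cell types were in the deposited table. The authors kept only genes with a TPM of 1 or more in all replicates of at least 1 group. By this filter no identifier could be at 0 in all libraries.

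All 10 identifiers had passed the authors' filter, and their levels spanned very different ranges. bcl2l11 met the filter only in 10C_AS and 10C_PD, and bokb only in 96hpf. The levels of bada, baxa and bnip3lb were the highest under most conditions, with medians over the 27 libraries of 29.6, 21.4 and 24.3 scaled TPM. bida ENSDARG00000112031 had a median of 13.7, pmaip1 9.81, bbc3 5.09, baxb 4.09, bida ENSDARG00000069290 3.54, bcl2l11 1.07 and bokb 0.793. Because TPM is corrected for length, these levels can be set side by side. 7 of the 10 identifiers were at 1 or more in every library, bbc3 in 25, bcl2l11 in 14 and bokb in 7 of 27. 28C_AS was the group with the lowest mean for bbc3, pmaip1, bada, bcl2l11, bnip3lb and both bida identifiers.

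bbc3 (ENSDARG00000069282), which encodes Puma, had the widest range of group means, 12.8-fold. It was at 12.5 ± 1.06 in 10C_SB, 10.9 ± 0.811 in 10C_PD and 10.4 ± 0.104 in 10C_DMSO, and neighbouring groups in this order overlapped. Below these came 10C_AS at 5.07 ± 0.446, 28C_PD at 4.86 ± 0.212, 28C_DMSO at 4.83 ± 0.295, 28C_SB at 4.57 on average and 96hpf at 3.54 ± 0.498, again with overlap between neighbours. The 3 libraries of 28C_AS, at 1.08, 0.995 and 0.863, lay below every other library. The cold groups other than 10C_AS thus formed an upper tier that did not overlap the rest.

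pmaip1 (ENSDARG00000089307), which encodes Noxa, an antagonist of Mcl1, split by temperature. Its group means were 32.6 ± 4.07 in 10C_DMSO, 32.3 ± 1.81 in 10C_PD, 28.5 ± 4.90 in 10C_AS and 26.7 ± 0.760 in 10C_SB. The warm groups had means of 9.69 ± 0.677 in 28C_PD, 7.50 ± 1.70 in 28C_DMSO, 6.16 ± 0.708 in 28C_SB and 4.21 ± 0.850 in 28C_AS, with 6.38 ± 2.15 in 96hpf. No library at 28 °C overlapped a library at 10 °C. bida ENSDARG00000069290 had the same split, with cold means from 8.58 ± 1.06 in 10C_AS to 10.8 ± 2.00 in 10C_PD and warm means from 1.62 ± 0.245 in 28C_AS to 3.49 ± 0.998 in 28C_PD. So did bida ENSDARG00000112031, with cold means from 18.5 ± 2.73 in 10C_DMSO to 22.3 ± 0.0592 in 10C_SB. Its warm means ran from 7.19 ± 0.630 in 28C_AS to 12.3 ± 1.12 in 28C_DMSO. The gap was narrow, between 15.5 in a 10C_DMSO library and 13.8 in a 28C_PD library. Bid, the product of bida, is cut by caspase-8 and links death receptors to mitochondria.

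bada (ENSDARG00000087993), which encodes a Bad protein, a BH3-only antagonist of Bcl2 and Bcl-xL that kinases hold inactive in mammals, ordered the groups differently. 28C_DMSO at 32.0 ± 2.52, 10C_DMSO at 37.0 ± 4.74 and the PD0325901 and SB203580 groups, from 30.3 ± 1.16 in 28C_PD to 35.2 ± 2.86 in 10C_SB, overlapped their neighbours in rank. 10C_AS at 23.0 ± 2.22 and 96hpf at 21.9 ± 0.540 lay below, and 28C_AS at 10.7 ± 0.759 was lowest. bnip3lb (ENSDARG00000028067) was nearly level in 8 groups, from 23.0 ± 3.10 in 28C_DMSO to 29.2 ± 2.13 in 10C_AS, and was at 9.26 ± 0.623 in 28C_AS. For bada and bnip3lb, no 28C_AS library overlapped a library of another group.

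Among the effectors, baxa (ENSDARG00000020623) was at 17.9 ± 2.29 in 28C_DMSO and 23.7 ± 2.37 in 10C_DMSO, and at 29.4 ± 0.956 to 30.5 ± 2.18 in the 3 cold groups with inhibitor. baxb (ENSDARG00000030881) had group means between 2.84 ± 0.963 and 4.32 ± 0.638, and each group overlapped the next in rank. bokb (ENSDARG00000008807) was at 1.88 ± 0.295 in 96hpf and between 0.254 ± 0.190 and 1.06 ± 0.421 elsewhere, and 96hpf did not overlap the next group. Since bokb passed the authors' filter only through 96hpf, a high level there was a condition of its entry. bcl2l11 (ENSDARG00000079144), which encodes Bim, had group means from 0.369 ± 0.180 to 1.42 ± 0.414, and its libraries within a group often differed as much as the groups. In 10C_SB, for example, they were at 1.88, 0.368 and 1.84.

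**Figure D1:**
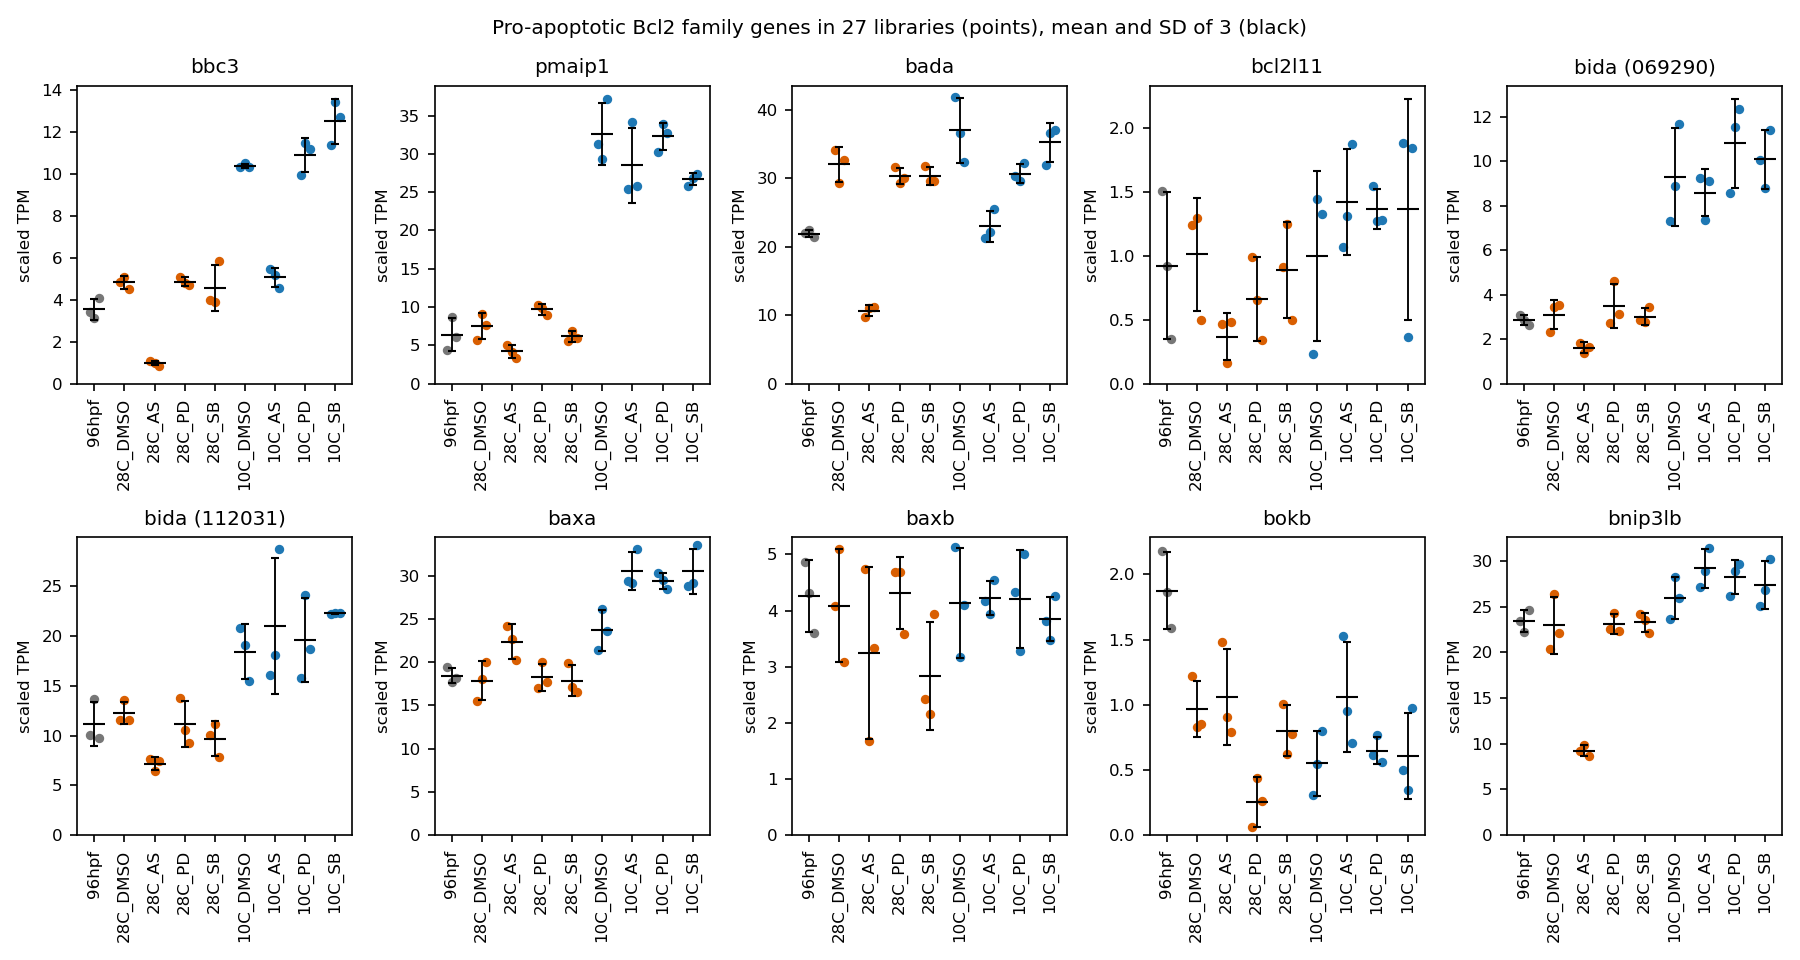
Level of each of the 10 identifiers (scaled TPM, vertical axis) in the 9 groups (horizontal axis), with 1 point per library (grey for 96hpf, orange for 28 °C, blue for 10 °C) and the mean and SD of 3 libraries in black. bida panels carry the last digits of the identifier. pmaip1 and both bida identifiers split by temperature, bbc3 is at 5.07 in 10C_AS against 10.4 in 10C_DMSO, and bnip3lb is at 9.26 in 28C_AS.

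Cold alone raised the BH3-only genes pmaip1, bida (at ENSDARG00000069290) and bbc3, as the comparison of 10C_DMSO with 28C_DMSO showed. The more abundant bida identifier, ENSDARG00000112031, missed the fold threshold, as given below. pmaip1 was at 31.3, 29.4 and 37.2 in the 3 cold libraries and at 5.75, 9.16 and 7.60 in the 3 warm ones. The groups did not overlap, and the ratio of means was 4.35-fold, a log2 rise of 2.00 (standard error 0.17, adjusted p = 6.35e-09 in limma). bida ENSDARG00000069290 was at 7.33, 8.91 and 11.7 in the cold and 2.34, 3.45 and 3.54 in the warm libraries, 2.99-fold apart (log2 rise of 1.32, standard error 0.17, adjusted p = 2.15e-06 in limma). bbc3 was at 10.3, 10.5 and 10.3 against 4.87, 5.10 and 4.52, 2.15-fold higher (log2 rise of 0.97, standard error 0.11, adjusted p = 2.41e-07 in limma). All 3 cold libraries of bbc3 lay within a narrow band above every warm library. These 3 calls held without any single library, 10C_DMSO replicate 1 included.

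In all, 3 of the 10 identifiers were called higher in the cold and 0 lower, where 8.73% of all genes were called higher and 7.06% lower. At an unadjusted p under 0.05 in limma 6 were higher and 0 lower. The median change of the 10 was 0.29, against -0.0047 over all genes. The groups did not overlap for 6 of the 10, 5 of them higher and bokb lower in the cold, against 45.4% of all genes. bokb was at 0.308, 0.543 and 0.800 in the cold and 1.22, 0.833 and 0.854 in the warm libraries, a log2 difference of -0.35 with a 95% interval from -0.72 to 0.02 (adjusted p = 0.122 in limma, not called). bida ENSDARG00000112031 was at 20.8, 19.1 and 15.5 in the cold and 11.6, 13.6 and 11.6 in the warm libraries, with a log2 difference of 0.55 (adjusted p = 0.0244 in limma) that missed the fold threshold. It passed with 0.61 without 28C_DMSO replicate 2 and 0.66 without 10C_DMSO replicate 3. baxa differed by 0.39 (adjusted p = 0.00256 in limma), also under the fold threshold, with no overlap between 21.4, 26.1 and 23.6 in the cold and 15.5, 18.1 and 20.1 in the warm libraries. bada differed by 0.20 with a 95% interval from 0.02 to 0.37, bnip3lb by 0.17 from -0.01 to 0.36 and baxb by 0.01 from -0.45 to 0.48. bcl2l11 differed by -0.05 from -0.66 to 0.57, so a change of its RNA in either direction within these bounds is not excluded. Whole larvae were sequenced, so a change in the number of cells that express a gene and a change in RNA per cell cannot be told apart in any of these comparisons. Among the cell type markers, all 11 exocrine pancreas identifiers were called lower in the cold. Their summed level was 22906 to 24238 in 28C_DMSO and 11580 to 13974 in 10C_DMSO. It was 13950 to 15346 in 96hpf, so much of the difference was a higher level after 12 h at 28 °C. Summed epidermis markers were higher in the cold without overlap, at 9599 to 11313 in 10C_DMSO against 8084 to 8943 in 28C_DMSO. The sums of the remaining cell types overlapped. The part of these markers in the results was not tested.

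**Figure D2:**
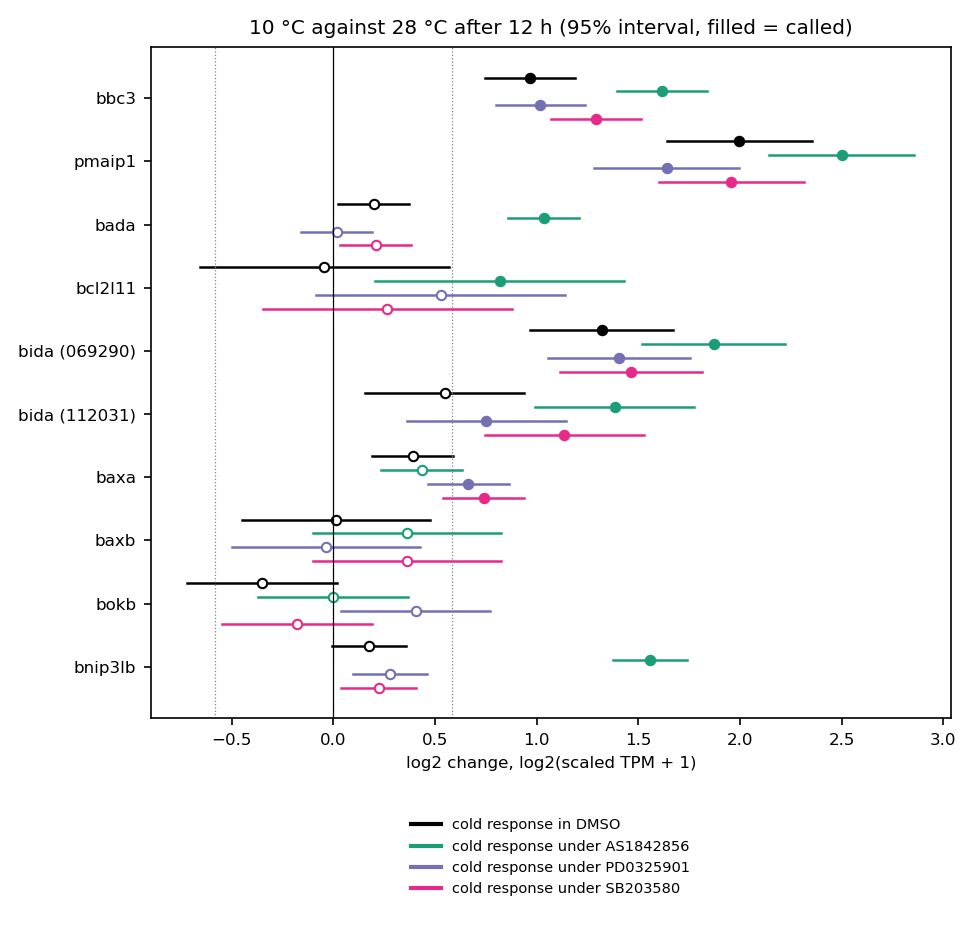
Change from 28 °C to 10 °C (horizontal axis, log2 scale with pseudocount 1) for each identifier (vertical axis) in DMSO and under each inhibitor, with 95% intervals, filled points for called changes and dotted lines at the fold threshold. The rise of pmaip1 is 2.00 in DMSO and 2.50 under AS1842856, and bnip3lb is called only under AS1842856, at 1.56.

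Anti-apoptotic genes of the family were also higher in 10C_DMSO than in 28C_DMSO. Of 6 measured, 3 were called higher and 0 lower, where 8.73% and 7.06% of all genes were, with a median change of 0.59. At an unadjusted p under 0.05 in limma 1 was lower. mcl1a, which encodes an Mcl1 protein, the partner of Noxa, rose from 54.1 ± 2.29 to 188 ± 12.3 (log2 rise of 1.78). mcl1b rose from 62.8 ± 5.24 to 98.1 ± 4.24 (0.64). bcl2l1, which encodes Bcl-xL, was at 12.3 ± 0.513 in 28C_DMSO and 20.5 ± 0.722 in 10C_DMSO (0.69). In 96hpf mcl1a was at 50.9 ± 1.04 and mcl1b at 55.9 ± 6.64. bcl2l1 was at 17.7 ± 0.305 there, so part of its difference was a lower level after 12 h at 28 °C. Summed over the 10 pro-apoptotic identifiers, the level was 107 ± 5.51 in 28C_DMSO and 163 ± 0.845 in 10C_DMSO, and summed over the 6 anti-apoptotic genes it was 178 ± 8.87 and 368 ± 11.9. The libraries of 28C_DMSO and 10C_DMSO did not overlap in either sum. The pro-apoptotic sum leaves out the 8 other pro-apoptotic identifiers described next. At an unadjusted p under 0.05 in limma, 1 of those was higher and 4 were lower in the cold, so the sums do not compare the whole family. Most of the rise in the anti-apoptotic sum was that of mcl1a.

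**Figure D3:**
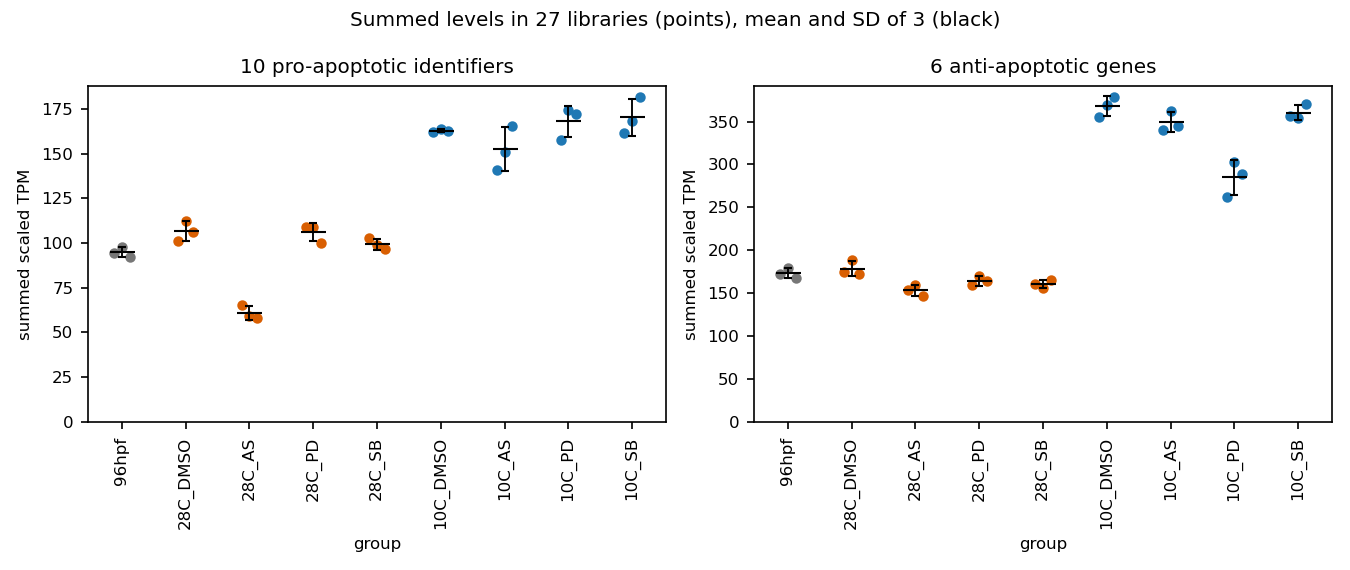
Summed scaled TPM (vertical axes) of the 10 pro-apoptotic identifiers on the left and the 6 anti-apoptotic genes on the right, by group (horizontal axes), with 1 point per library (grey for 96hpf, orange for 28 °C, blue for 10 °C) and the mean and SD of 3 libraries in black. The pro-apoptotic sum is lowest in 28C_AS at 61.0, and the anti-apoptotic sum is 285 in 10C_PD against 368 in 10C_DMSO. The 8 other pro-apoptotic identifiers are not in the sum.

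No call was made in the cold among other pro-apoptotic genes of the family. Of 13 further symbols, 7 were measured, with 8 identifiers, and 0 of these were called. At an unadjusted p under 0.05 in limma 1 was higher and 4 were lower, and the median was -0.17. The most abundant were bnip3, the relative of bnip3lb, with 16.8 ± 0.265 in 10C_DMSO against 24.3 ± 1.66 in 28C_DMSO, and badb, the second copy of Bad, with 10.7 ± 1.65 against 13.3 ± 0.706. Downstream, 1 of 14 identifiers of the apoptosome and caspases was called, casp2, an initiator caspase. It was at 66.0 ± 4.73 in 28C_DMSO and 109 ± 12.9 in 10C_DMSO, with 89.1 ± 10.1 in 96hpf. Among inhibitors of apoptosis and their antagonists, 2 of 10 identifiers were called. The shares of all genes beside these counts were 8.73% called higher and 7.06% lower. xiap (ENSDARG00000016143), an inhibitor of caspases whose symbol is shared, was at 9.21 ± 0.509 in 28C_DMSO and 15.3 ± 1.79 in 10C_DMSO. It was at 14.2 ± 0.256 in 96hpf, so the cold level was near that at the start. The other xiap identifier, ENSDARG00000110199, was at 7.53 ± 3.34 in 28C_DMSO and 7.45 ± 2.94 in 10C_DMSO. diablob, which encodes an antagonist of such inhibitors, fell from 24.7 ± 0.487 to 16.2 ± 2.99.

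Of 21 identifiers of factors known to control BH3-only genes, 8 were called higher and 1 lower in the cold. Over all genes 8.73% were called higher and 7.06% lower. The 8 include foxo1b, at 0.439 ± 0.0740 in 28C_DMSO and 1.24 ± 0.399 in 10C_DMSO. Its means in 96hpf, 28C_DMSO, 28C_PD and 28C_SB were below 1, so the authors' filter favoured such a rise. The rise of foxo1b is therefore not an independent result. trib3, a pseudokinase induced by endoplasmic reticulum stress, rose from 12.1 ± 0.698 to 87.8 ± 5.43 (log2 rise of 2.76), and ddit3, which encodes the stress factor Chop, from 24.4 ± 3.53 to 67.0 ± 10.2 (1.42). jun, a subunit of the factor AP-1, rose from 45.4 ± 3.45 to 181 ± 10.7 (1.97). atf4b, a factor of the integrated stress response, rose by 1.19 at ENSDARG00000038141 and by 1.17 at ENSDARG00000114163. The factor that was lower was tp63, a factor of basal epidermal cells, which fell from 14.2 ± 0.992 to 7.48 ± 0.128.

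AS1842856 lowered 6 of the 10 identifiers at 28 °C, where 5.81% of all genes were called lower and 6.39% higher. bbc3 was at 1.08, 0.995 and 0.863 in 28C_AS against 4.87, 5.10 and 4.52 in 28C_DMSO, 4.93-fold lower (log2 change of -1.56, standard error 0.11, adjusted p = 2.76e-10 in limma). bada was at 9.80, 11.1 and 11.2 against 34.2, 29.2 and 32.6, 3.00-fold lower (-1.50, standard error 0.08, adjusted p = 1.63e-11 in limma). bnip3lb was at 9.25, 9.88 and 8.64 against 20.4, 26.4 and 22.1, 2.48-fold lower (-1.22, standard error 0.09, adjusted p = 6.70e-10 in limma). For these 3 genes the groups were far apart, and the call held under every alternative setting that kept the gene in the test and without any single library.

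The other 3 calls were closer to the threshold. pmaip1 was at 5.09, 4.14 and 3.40 in 28C_AS against 5.75, 9.16 and 7.60 (log2 change of -0.70, adjusted p = 0.00297 in limma), but at -0.56 without 28C_DMSO replicate 2 and -0.58 without 28C_AS replicate 3, below the fold threshold. bida ENSDARG00000069290 was at 1.85, 1.36 and 1.63 against 2.34, 3.45 and 3.54 (-0.64, adjusted p = 0.00509 in limma), and fell below the threshold without 28C_DMSO replicate 2 (-0.58), 28C_DMSO replicate 3 (-0.56) or 28C_AS replicate 2 (-0.57). bida ENSDARG00000112031 was at 7.64, 6.47 and 7.47 against 11.6, 13.6 and 11.6 (-0.69, adjusted p = 0.00624 in limma). With a pseudocount of 5 the count was 3, since these 3 calls were lost. The median change of the 10 was -0.67, against -0.0094 over all genes, and the groups did not overlap for 8 of the 10, against 44.9% of all genes. bcl2l11, at 0.466, 0.160 and 0.479 against 1.24, 1.296 and 0.499, differed by -0.54 with an interval from -1.15 to 0.07. baxa was higher, by 0.31 (adjusted p = 0.0148 in limma), under the fold threshold, and baxb and bokb differed by -0.31 (-0.77 to 0.15) and 0.06 (-0.31 to 0.42).

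The summed markers of all 8 cell types were lower in 28C_AS than in 28C_DMSO, with no overlap between the groups. Of all genes 5.81% were called lower in this comparison. Of 9 leukocyte identifiers 2 were called lower, and the summed level was 124 to 156 against 269 to 296. Of 7 liver identifiers 1 was called lower, and the sum was 6982 to 7618 against 10099 to 11104. Of 11 exocrine pancreas identifiers 1 was called lower, with sums of 18574 to 19530 against 22906 to 24238. Sums were 27151 to 30855 against 33223 to 36610 for skeletal muscle, 6361 to 7307 against 8084 to 8943 for epidermis and 3860 to 4054 against 4215 to 4502 for photoreceptors, with 1 of 9, 1 of 9 and 2 of 9 tested identifiers called lower. The epidermis sum was taken over 10 identifiers, its count of calls over 9. Neurons, at 858 to 898 against 914 to 972, and erythroid cells, at 3680 to 4059 against 4155 to 4634, had 0 of 7 and 0 of 9 identifiers called in limma, where 3 and 2 were at an unadjusted p under 0.05. The part of these cell types in the lower levels of the BH3-only genes was not tested.

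Other genes of the pathway moved in both directions with AS1842856 at 28 °C, and those named here were chosen after their values were seen. The counts below stand beside 6.39% of all genes called higher and 5.81% called lower. Of the 8 other pro-apoptotic identifiers 4 were lower and 1 higher. bik fell from 7.71 ± 0.880 to 3.55 ± 1.27, bnip3 from 24.3 ± 1.66 to 12.0 ± 0.471, bmf2 from 3.94 ± 0.489 to 1.88 ± 0.157 and bnip3la from 8.96 ± 0.729 to 5.396 ± 0.803. bcl2l13 (ENSDARG00000062370) was higher, at 9.44 ± 0.510 against 5.26 ± 2.04, with 9.90 ± 1.88 in 96hpf. The other bcl2l13 identifier, ENSDARG00000111116, was not called. Bik and Bmf are BH3-only proteins. Of the 6 anti-apoptotic genes 1 was lower, mcl1b, from 62.8 ± 5.24 to 41.3 ± 2.82. Of the 14 identifiers of the apoptosome and caspases 4 were higher and 3 lower: cycsb, which encodes cytochrome c, rose from 287 ± 26.7 to 526 ± 24.9, whereas the initiator casp9 fell from 8.35 ± 0.368 to 4.36 ± 0.436 and the executioner casp3a from 55.3 ± 8.53 to 29.9 ± 1.38. Of the 21 identifiers of factors 2 were called lower. mdm2 (ENSDARG00000115677), which encodes a ubiquitin ligase, fell from 12.6 ± 2.22 to 7.10 ± 1.04 and foxo4 from 23.3 ± 0.380 to 10.0 ± 0.599. The other mdm2 identifier, ENSDARG00000033443, at 23.6 ± 4.34 in 28C_DMSO, was not called.

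At 10 °C, AS1842856 lowered 2 of the 10 identifiers, bbc3 and bada, where 0.519% of all genes were called lower and 0.407% higher. bbc3 was at 5.46, 5.16 and 4.58 in 10C_AS against 10.3, 10.5 and 10.3 in 10C_DMSO, 2.05-fold lower (log2 change of -0.91, standard error 0.11, adjusted p = 4.48e-05 in limma). Its level in 10C_AS overlapped that in 28C_DMSO. bada was at 21.3, 22.1 and 25.5 against 41.9, 36.6 and 32.4, 1.61-fold lower (-0.66, standard error 0.08, adjusted p = 0.000143 in limma). The bada call was lost without 10C_DMSO replicate 1 (-0.57), with a pseudocount of 5 (-0.58) and in a fit of the compared groups alone (adjusted p = 0.124 in limma). pmaip1 differed by -0.19 (95% interval from -0.55 to 0.16), bida ENSDARG00000069290 by -0.09 (-0.44 to 0.26), bida ENSDARG00000112031 by 0.14 (-0.25 to 0.53), bcl2l11 by 0.32 (-0.29 to 0.94) and bnip3lb by 0.17 (-0.02 to 0.35). baxa was higher by 0.36 (adjusted p = 0.0417 in limma), under the fold threshold, with 29.4, 29.2 and 33.1 against 21.4, 26.1 and 23.6. The groups did not overlap for bbc3, bada and baxa, 3 of 10, against 21.4% of all genes. Leukocyte markers summed to 223 to 251 in 10C_AS and 238 to 309 in 10C_DMSO, with 0 of 9 identifiers called. Of the liver markers 1 of 7 and of the skeletal muscle markers 1 of 9 were called lower. Summed neuron markers were higher without overlap, at 1053 to 1065 in 10C_AS against 926 to 971 in 10C_DMSO. Sums were lower without overlap for epidermis (8795 to 9411 against 9599 to 11313) and skeletal muscle (32410 to 35052 against 35768 to 40635). The remaining sums overlapped. The part of cell types in these changes was not tested.

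Elsewhere in the pathway, 1 of the 6 anti-apoptotic genes was called with AS1842856 at 10 °C, mcl1b, which fell from 98.1 ± 4.24 to 64.0 ± 1.35 (log2 change of -0.61). Of all genes 0.519% were called lower and 0.407% higher. Of 10 identifiers of inhibitors of apoptosis and their antagonists 1 was called, diabloa, which encodes a Diablo protein and fell from 21.9 ± 2.67 to 13.4 ± 4.37 (-0.71). Of the other pro-apoptotic genes 0 of 8 identifiers were called, of the apoptosome and caspases 0 of 14, and of the factors 0 of 21. At an unadjusted p under 0.05 in limma these counts were 0, 3 and 11.

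Between inhibitors at 10 °C, bbc3 was higher under PD0325901 than under AS1842856, at 9.96, 11.5 and 11.2 in 10C_PD (log2 difference of 0.97, standard error 0.11, adjusted p = 8.52e-06 in limma). It was called as 1 of 10 identifiers, where 0.174% of all genes were higher. bada was higher by 0.41 (adjusted p = 0.0154 in limma), under the fold threshold.

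**Figure D4:**
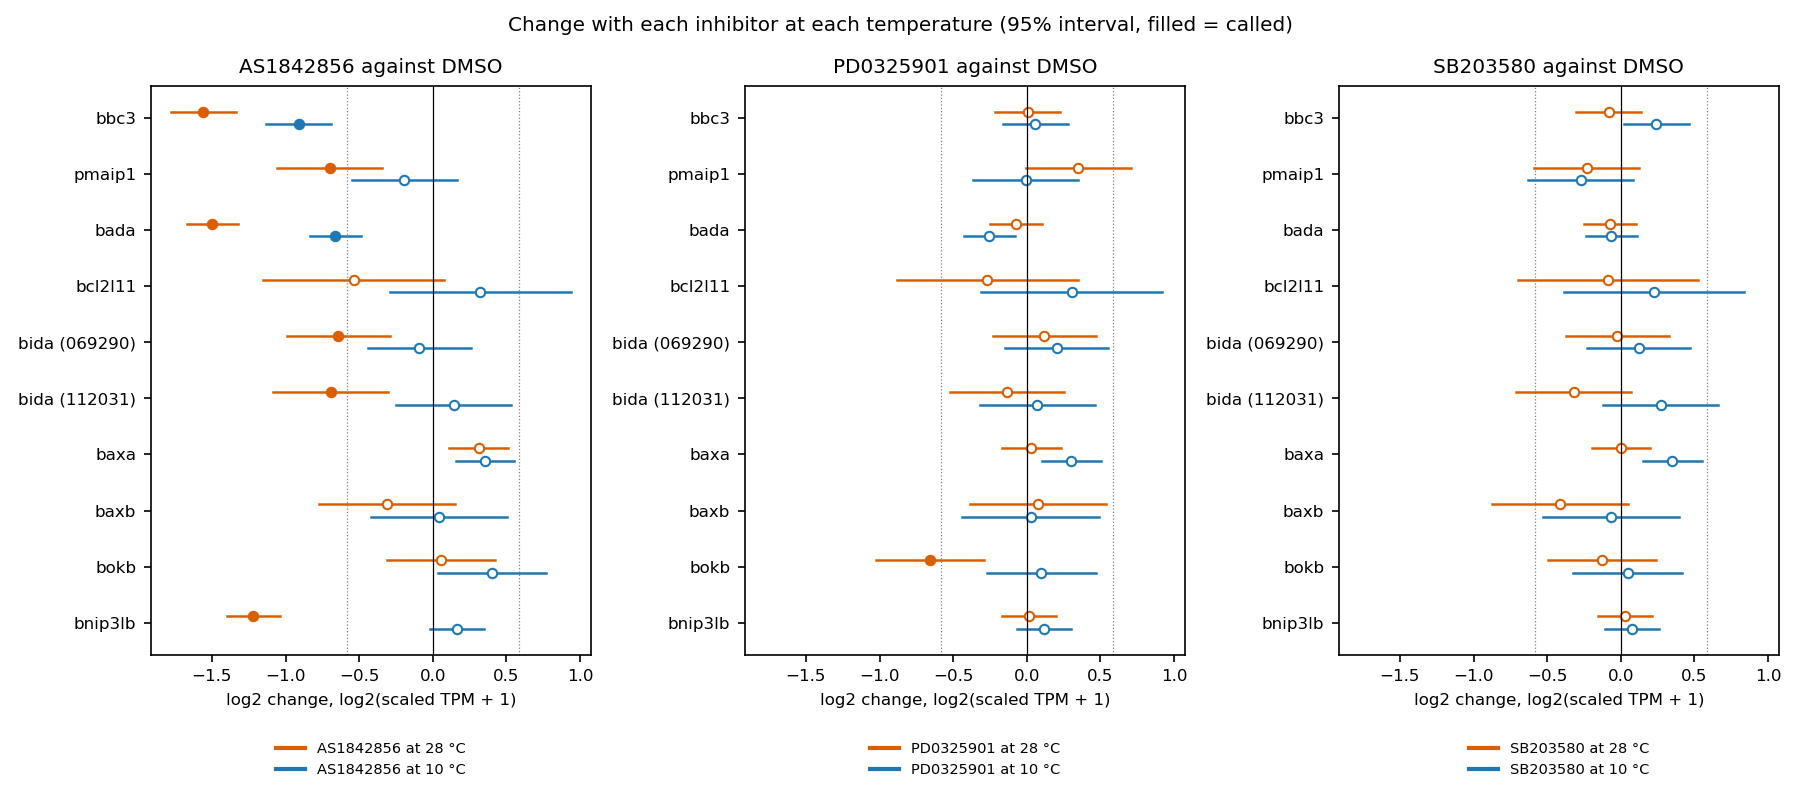
Change with each inhibitor against DMSO (horizontal axes, log2 scale with pseudocount 1) for each identifier (vertical axes) at 28 °C in orange and 10 °C in blue, with 95% intervals, filled points for called changes and dotted lines at the fold threshold. With AS1842856, bbc3 is at -1.56 at 28 °C and -0.91 at 10 °C, and bnip3lb at -1.22 and 0.17. With PD0325901 the filled point is bokb at 28 °C, and SB203580 has none.

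The effect of AS1842856 differed by temperature for 4 of the 10 identifiers, in a test of the difference between its changes at 10 °C and 28 °C, where 5.36% of all genes were called in that direction and 5.39% in the other. The estimate was positive for all 10, meaning a less negative or more positive change at 10 °C, with a median of 0.60 against 0.0074 over all genes. The 10 include bcl2l11, which passed the authors' filter only through 10C_AS and 10C_PD. Its positive estimate is therefore not an independent result. All 10 estimates come from the same 12 libraries, so their shared direction is not a set of separate results. bnip3lb had a difference of 1.38 (standard error 0.12, adjusted p = 6.01e-08 in limma), as it was lower with AS1842856 at 28 °C and not called at 10 °C. For bada the difference was 0.84 (standard error 0.12, adjusted p = 2.24e-05 in limma) and for bbc3 0.65 (standard error 0.15, adjusted p = 0.00332 in limma). The bbc3 difference depended on the pseudocount, being 0.10 and not called with a pseudocount of 5. For bida ENSDARG00000112031 it was 0.84 (adjusted p = 0.0273 in limma), and this call was lost in a fit of the compared groups alone (adjusted p = 0.0519 in limma) and without 28C_DMSO replicate 2 (0.77), 28C_AS replicate 2 (0.77), 10C_DMSO replicate 3 (0.72) or 10C_AS replicate 3 (0.60). pmaip1 at 0.50 (adjusted p = 0.152 in limma) and bida ENSDARG00000069290 at 0.55 (adjusted p = 0.108 in limma) did not pass. The latter passed with 0.69 without 28C_DMSO replicate 1 and 0.71 without 10C_DMSO replicate 3.

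Seen from the other side, the change from 28 °C to 10 °C was called for more of these genes in the presence of AS1842856 than in DMSO, with the test of that difference being the one just given. Under AS1842856, 7 of 10 identifiers were called higher, where 12.2% of all genes were, and the groups did not overlap for 8 of 10, against 57.4% of all genes. pmaip1 rose by 2.50 on the log2 scale, bida ENSDARG00000069290 by 1.87, bbc3 by 1.61, bnip3lb by 1.56, bida ENSDARG00000112031 by 1.38 and bada by 1.03. bcl2l11 rose by 0.82 (adjusted p = 0.0257 in limma), a call lost without 28C_AS replicate 2 (0.70) or 10C_AS replicate 3 (0.69), with quantile normalization and with a pseudocount of 5. bcl2l11, counted among the 7 called and the 8 without overlap, passed the authors' filter only through 10C_AS and 10C_PD. Its rise to 10C_AS is therefore not an independent result. baxb, with a difference of 0.36, passed with 0.61 only without 28C_AS replicate 1.

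Under PD0325901, 5 of 10 identifiers were called higher in the cold, against 10.4% of all genes, and under SB203580 also 5, against 9.39%. The called identifiers were those of bbc3, pmaip1, bida (both) and baxa in each case. The groups did not overlap for 8 and 7 of the 10, against 53.9% and 51.2% of all genes. The 8 under PD0325901 include bcl2l11, which passed the authors' filter only through 10C_AS and 10C_PD. Under PD0325901 bokb, with a difference of 0.40, also passed with a pseudocount of 0.1 (1.24, adjusted p = 0.0201 in limma) or 0.5 (0.64, adjusted p = 0.0456 in limma), which made the count 6. bbc3 rose by 1.02 and 1.29, pmaip1 by 1.64 and 1.96, bida ENSDARG00000069290 by 1.40 and 1.46 and bida ENSDARG00000112031 by 0.75 and 1.14. baxa rose by 0.66 and 0.74, the former with 0.51 and not called in TPM as deposited, 0.56 with quantile normalization and 0.57 with a pseudocount of 5. For PD0325901 and SB203580, 0 of 10 identifiers passed the test of a difference by temperature in limma, where 1.62% and 0.029% of all genes did, and 1 and 3 were at an unadjusted p under 0.05. The cold libraries with an inhibitor and those without were each compared with warm libraries of the same treatment, so these comparisons share no library.

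PD0325901 and SB203580 left most of these genes near the DMSO level. With PD0325901 at 10 °C 0 of 10 identifiers were called in limma, where 0.382% of all genes were, and 2 were at an unadjusted p under 0.05, baxa at 0.30 (95% interval from 0.10 to 0.50) and bada at -0.25 (-0.43 to -0.08). bbc3 differed by 0.06 (-0.16 to 0.28) and pmaip1 by -0.01 (-0.37 to 0.35). With SB203580 at 10 °C 0 of 10 were called in limma, where 0.0207% of all genes were, and 2 were at an unadjusted p under 0.05, baxa at 0.35 (0.15 to 0.55) and bbc3 at 0.24 (0.02 to 0.46). The groups did not overlap for 2 identifiers with PD0325901 and 4 with SB203580, against 15.1% and 12.1% of all genes. With PD0325901 these were baxa, higher, and bada, lower, and with SB203580 baxa, bbc3 and bida ENSDARG00000112031, higher, and pmaip1, lower. pmaip1 was at 25.9, 26.9 and 27.3 in 10C_SB against 31.3, 29.4 and 37.2 in 10C_DMSO, a log2 difference of -0.27 (-0.63 to 0.08), and bida ENSDARG00000112031 at 22.3, 22.3 and 22.4 against 20.8, 19.1 and 15.5, a difference of 0.27 (-0.12 to 0.66). baxa libraries were at 30.3, 29.4 and 28.4 in 10C_PD and 28.8, 29.2 and 33.5 in 10C_SB, all above the 10C_DMSO libraries, which the comparisons of the 3 inhibitors at 10 °C share.

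One anti-apoptotic gene did respond to PD0325901 at 10 °C. mcl1a fell from 188 ± 12.3 to 112 ± 7.82 (log2 change of -0.74, adjusted p = 9.60e-08 in limma), as 1 of 6 genes, where 0.382% of all genes were called. With SB203580 at 10 °C 0 of 6 were called in limma, with 1 at an unadjusted p under 0.05, and mcl1a was at 173 on average against 188.

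At 28 °C, PD0325901 lowered 1 of 10 identifiers, bokb, where 0.975% of all genes were called lower. bokb was at 0.0615, 0.441 and 0.260 in 28C_PD against 1.22, 0.833 and 0.854 in 28C_DMSO (log2 change of -0.66, adjusted p = 0.0265 in limma). All 6 values were near or below 1, and the call was lost without 28C_DMSO replicate 1 (-0.57), 28C_PD replicate 1 (-0.54) or 28C_PD replicate 3 (-0.67, adjusted p = 0.0696 in limma), and under 3 of the other settings that kept it in the test. Summed liver markers were lower in 28C_PD, at 8312 to 8603 against 10099 to 11104 in 28C_DMSO. Sums of epidermis, erythroid cells, exocrine pancreas, leukocytes and skeletal muscle were also lower without overlap. Those of neurons and photoreceptors overlapped, and the part of cell types was not tested. With SB203580 at 28 °C 0 of 10 were called in limma and 0 were at an unadjusted p under 0.05, where 0.0207% of all genes were called. The widest estimates were baxb at -0.41 (95% interval from -0.88 to 0.05) and bida ENSDARG00000112031 at -0.32 (-0.71 to 0.07).

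**Figure D5:**
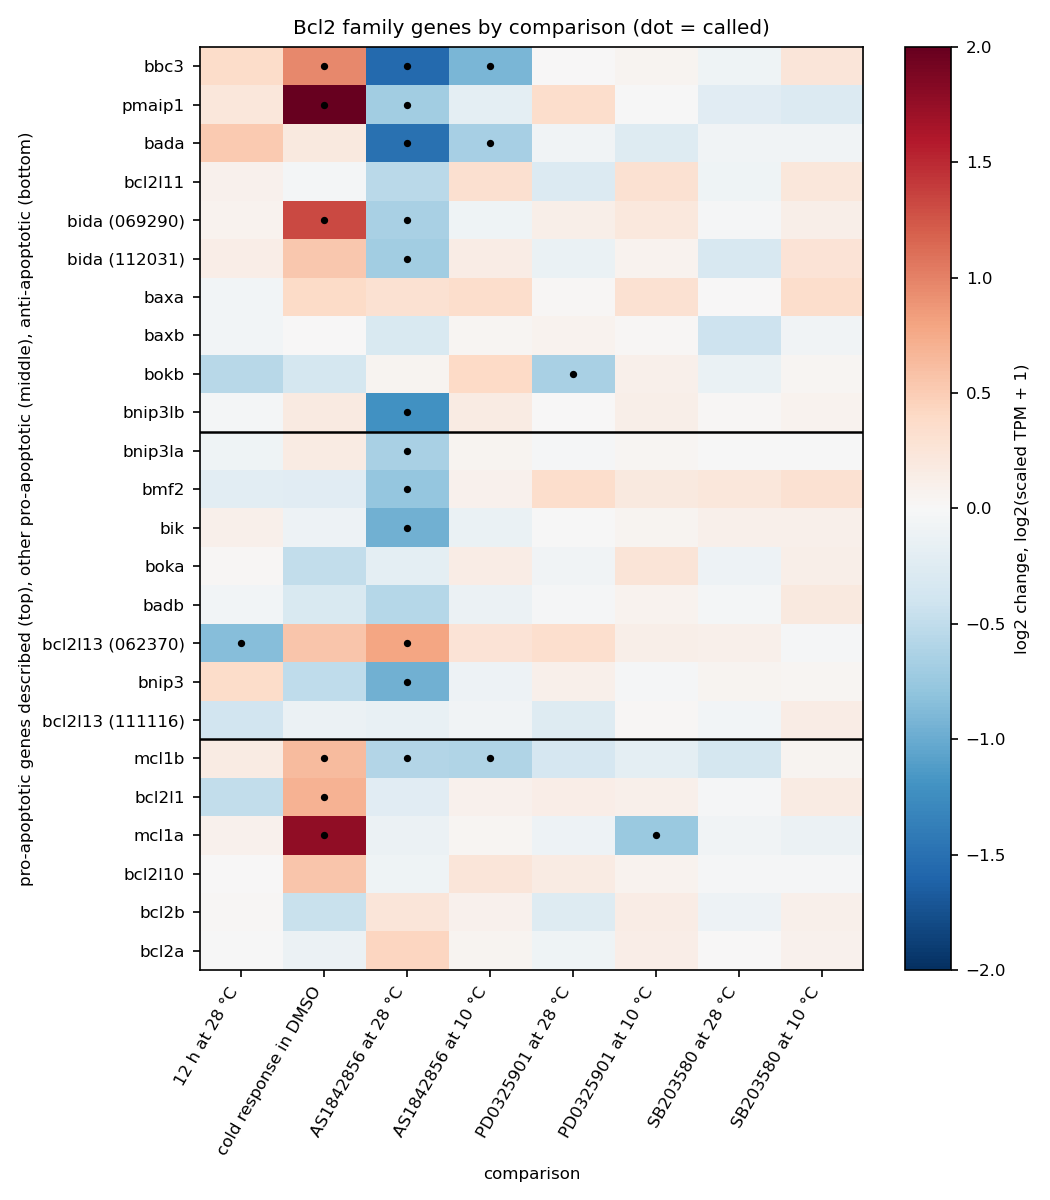
Log2 change (colour, pseudocount 1, scale from -2 to 2) of the pro-apoptotic genes described, other pro-apoptotic genes and anti-apoptotic genes (vertical axis, from top to bottom) in 8 comparisons (horizontal axis), with a dot where the change was called. In the cold, calls are at bbc3, pmaip1 and bida ENSDARG00000069290 among the pro-apoptotic and at mcl1a, mcl1b and bcl2l1 among the anti-apoptotic genes, and the AS1842856 column at 28 °C has 6 dots in the top block.

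The starting larvae gave a reference before any exposure. From 96hpf to 28C_DMSO, a comparison in which 12 h of development and the vehicle cannot be told apart, 0 of 10 identifiers were called in limma, where 2.75% of all genes were, and 3 were at an unadjusted p under 0.05. bada was at 21.99, 22.4 and 21.3 in 96hpf, below the 28C_DMSO libraries, and higher by 0.52 (adjusted p = 0.000193 in limma), just under the fold threshold, which it passed at 0.59 without 28C_DMSO replicate 2. bbc3 was higher by 0.37 (adjusted p = 0.0294 in limma), also under it. bokb was at 2.18, 1.86 and 1.59 in 96hpf, above all 28C_DMSO libraries, and differed by -0.55 (adjusted p = 0.0535 in limma). As bokb entered the table only through 96hpf, the filter favoured such a difference.

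From 96hpf to 10C_DMSO, 5 of 10 identifiers were called higher and 1 lower, where 7.14% and 5.27% of all genes were. The groups did not overlap for 7 of the 10, against 43.4% of all genes. pmaip1 rose by 2.22 on the log2 scale, bida ENSDARG00000069290 by 1.40, bbc3 by 1.33, bada by 0.72 and bida ENSDARG00000112031 by 0.68, and bokb fell by 0.90. bokb is in the counts of genes called lower and without overlap. It passed the authors' filter only through 96hpf, so its fall is not an independent result. With TPM as deposited bada was at 0.56 and bida ENSDARG00000112031 at 0.53, under the fold threshold, as were bida ENSDARG00000112031 at 0.54 and bokb at -0.31 with a pseudocount of 5. This comparison and that with 28C_DMSO share the 10C_DMSO libraries. pmaip1, bida ENSDARG00000069290 and bbc3 were thus higher in the cold against both the larvae at the start and those kept warm for the same time.

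Across the 27 libraries the levels of some of these genes ran together. Pearson's r on the log2 scale was 0.957 between pmaip1 and bida ENSDARG00000069290, 0.876 between the bida identifiers, which may share reads, 0.852 between bbc3 and bada and 0.826 between bbc3 and pmaip1. It was 0.531 between pmaip1 and bada and 0.045 between bada and baxa. These values describe the same 27 libraries in 9 groups, so temperature and AS1842856 enter all of them. The genes most like pmaip1 were pim3 (0.976), which encodes a Pim kinase, uevld (0.972), klf11b (0.971), a Krüppel-like factor, and otud1 (0.970), a deubiquitinase. Those most like bbc3 were herpud1 (0.944), a gene of the endoplasmic reticulum stress response, hunk (0.939), fbxo33 (0.930) and pim2 (0.929), a second Pim kinase. bida ENSDARG00000069290 was most like histh1l (0.971), pim3 (0.971), ppp1r10 (0.969) and sox9a (0.969), and bida ENSDARG00000112031 like sox5 (0.934), hmgb1b (0.911), rxfp3.3b (0.908) and btg1 (0.906). For bcl2l11, near 1 scaled TPM, the highest values were 0.757 for med19b, 0.728 for gpx1a, 0.715 for mettl5 and 0.681 for cyp3c1.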

How the data were processed

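RNA was sequenced from 27 whole-larva libraries, grouped by their titles. Per the study's methods, reads were quantified with Salmon 0.13.1 on Ensembl release 101 cDNA and summed to genes with tximport. The authors deposited TPM values, for genes with a TPM of 1 or more in all replicates of at least 1 group, a filter all 24101 genes met. TPM holds no counts or depth, so no count test was used and no counting error is given. Read numbers that the study gives were not used here.

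TPM was divided by median-of-ratios size factors from 22746 genes (0.940 to 1.11). limma 3.58.1 in R 4.3.3 was fitted to log2(scaled TPM + 1) with 9 group means, 18 residual degrees of freedom and a trended prior. Tests were two-sided, with Benjamini-Hochberg adjustment over 24101 genes, and were tested on simulated data. The smallest two-sided p of an exact permutation test with 3 libraries a group is 0.1, so none was run. Alternatives were other scalings, pseudocounts of 0.1, 0.5 and 5, a filter on low values, the compared groups alone, a replicate block, library weights, no trend in the prior and leaving out each library.

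The members and lists were chosen with earlier results of these data known. By rule, every identifier of each member is named. From each other list, up to 4 called genes with the largest change were eligible for the comparison of 10C_DMSO with 28C_DMSO and those of inhibitor with vehicle at 10 °C, or the 2 most abundant where 0 were called, and not all eligible genes are printed. Genes most like a member had the highest Pearson's r among those with a group mean of 5 or more, group means at least 1.5-fold apart on the log2(scaled TPM + 1) scale and a unique symbol. No genome of the build used was at hand, so no coordinates or sequences are given. One item of a gene list is not reported here and was left out of its list.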

Additional observations from a re-analysis of the deposited data

Results flagged for a closer look

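Besides bnip3lb (1.38), bada (0.84), bida ENSDARG00000112031 (0.84) and bbc3 (0.65), the change with AS1842856 differed between 10 °C and 28 °C for other genes of the pathway, in limma's test of that difference with the same thresholds. Positive values mean a less negative or more positive change at 10 °C. Among the other pro-apoptotic genes these were bnip3 (0.87), bmf2 (0.85), bik (0.84) and bnip3la (0.70). Among caspases they were casp3a (0.89) and casp9 (0.59), and among factors foxo4 (0.75) and foxo1a (0.65). Negative differences were found for aifm1 at ENSDARG00000058088 (-0.91) and endog (-0.74), which encode mitochondrial proteins, for diabloa (-0.87) and for birc6 at ENSDARG00000115931 (-1.05). With PD0325901, the change of mcl1a differed by -0.64 and that of jun by -0.60 between the temperatures.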

How the results depend on the processing

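Of 160 changes of single identifiers (10 identifiers in 16 comparisons), 40 were called, and 28 of these were called under every alternative that kept the gene in the test, while 12 were lost under at least 1. The direction of 0 called changes reversed. With AS1842856 at 10 °C the count of called identifiers was 1 in place of 2 with a pseudocount of 5, with genes at 1 or more in all libraries (which leaves bbc3, bcl2l11 and bokb out) and with only the groups compared, and it ranged from 1 to 2 when each library was left out in turn. With AS1842856 at 28 °C it was 3 in place of 6 with a pseudocount of 5, and 4 to 6 when libraries were left out. With PD0325901 at 28 °C it was 0 in place of 1 with quantile normalization, a pseudocount of 5, genes at 1 or more in all libraries and only the groups compared, and 0 to 1 when libraries were left out. From 96hpf to 28C_DMSO it was 1 in place of 0 with TPM as deposited, and 0 to 1 when libraries were left out. Between PD0325901 and AS1842856 at 10 °C it was 0 in place of 1 with genes at 1 or more in all libraries, since bbc3 was left out by the filter. Apart from effects that the construction shows, the cause was not tested.

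TPM as deposited moved the median of all genes to 0.12 with PD0325901 at 28 °C, to -0.14 from 96hpf to 10C_DMSO and to -0.14 in the cold under PD0325901. The genes called higher and lower went from 124 and 235 to 300 and 154, from 1720 and 1271 to 1276 and 2263, and from 2498 and 1728 to 1814 and 2994 in these comparisons, and from 271 and 391 to 176 and 623 from 96hpf to 28C_DMSO. The replicate numbers in the titles pair nothing by the labels. Same-numbered libraries of 10C_DMSO and 28C_DMSO deviated from their group means with r of 0.233, 0.102 and 0.0562, all positive. In the other comparisons of 2 groups r lay between -0.0667 (PD0325901 at 28 °C) and 0.152 (SB203580 at 10 °C). What these values reflect was not tested, and the main fit assumed no pairing, as the labels give none. With a replicate block the count stayed at 3 in the cold, 6 with AS1842856 at 28 °C and 2 at 10 °C, and no call of the 160 changed.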
